A study of Mus musculus with 16 samples.

Results

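The Janus kinases (JAKs) are the intended targets of both drugs applied in this study of mouse skin, and their own messenger RNA was followed here before and after treatment. The family has 4 genes, Jak1 (Entrez gene 16451), Jak2 (16452), Jak3 (16453) and Tyk2 (54721). On the Affymetrix mouse array, 8 of 45101 probe sets carry exactly 1 of these symbols in the platform annotation: 3 for Jak1, 2 for Jak2, 1 for Jak3 and 2 for Tyk2. A probe set is a group of short probes read together as 1 value for a transcript. Of the 8, 6 exceeded a log2 value of 4 in at least 2 arrays and were tested. The remaining 2, the Jak3 probe set and the second Tyk2 probe set did not.

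The material was full-thickness skin from the back of female C57/B6 mice, taken at 8.5 weeks of age (day 0) and, from skin treated topically each day for 4 days, again at day 5. The Day 0 group holds 9 arrays from untreated skin of mice 1 to 9. Mice 2 and 3 were treated with dimethyl sulfoxide (DMSO), the vehicle, mice 4 and 6 with ruxolitinib, and mice 7, 8 and 9 with tofacitinib, each giving 1 array at day 5. Mice 1 and 5 enter with day 0 alone. The labels name no genetic change in any group. No dose is stated for either drug in the labels used here. Every day-5 sample is a second biopsy of a mouse that had been biopsied before, so time, repeat biopsy and application cannot be told apart in a comparison with Day 0. The comparison with DMSO sets each drug against its vehicle on the same day. For mouse 7 the labels conflict: a description of its day-5 array says ruxolitinib, but its title, source and treatment field say tofacitinib, and it was grouped by those. The sample titles write the strain as C57/B7 and the other fields as C57/B6.

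JAKs are cytoplasmic tyrosine kinases that sit on the inner part of cytokine receptors without kinase activity of their own. Binding of a cytokine brings 2 JAKs together, they phosphorylate each other and the receptor, and STAT transcription factors dock there, are phosphorylated and move to the nucleus. Jak1 serves many receptors, among them those of interferons, the gp130 family and the common gamma chain. Jak2 serves the receptors of growth hormone, erythropoietin, leptin and interferon gamma, Jak3 binds only the common gamma chain and is found mainly in lymphoid cells, and Tyk2 serves receptors of type I interferon and of the IL-12, IL-23 and IL-10 families. In skin these kinases pass signals from T cell cytokines to keratinocytes. Ruxolitinib acts mainly on JAK1 and JAK2, and tofacitinib mainly on JAK1 and JAK3. Both block the kinase activity of the protein and are not designed to change the amount of its messenger RNA.

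In this skin, Tyk2 was lower in every day-5 group than at day 0, and 1 of the 2 Jak2 probe sets was higher in every day-5 group. Tyk2 fell 3.32-fold with DMSO, 2.55-fold with ruxolitinib and 2.78-fold with tofacitinib. The Jak2 probe set 1421065_at rose 2.89-fold, 2.16-fold and 2.53-fold in the same groups. Between 33.3% and 48.5% of all tested probe sets were called in these comparisons. The other Jak2 probe set and all 3 Jak1 probe sets passed the test in no comparison, and Jak3 lay close to background on all 16 arrays. Between the drugs and the vehicle at day 5, none of the 6 tested probe sets differed in the test. Values are log2 expression on the authors' GCRMA scale, where 1 unit is a doubling. Levels of different probe sets are not compared with each other, because probes differ in how strongly they bind.

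**Figure D1:**
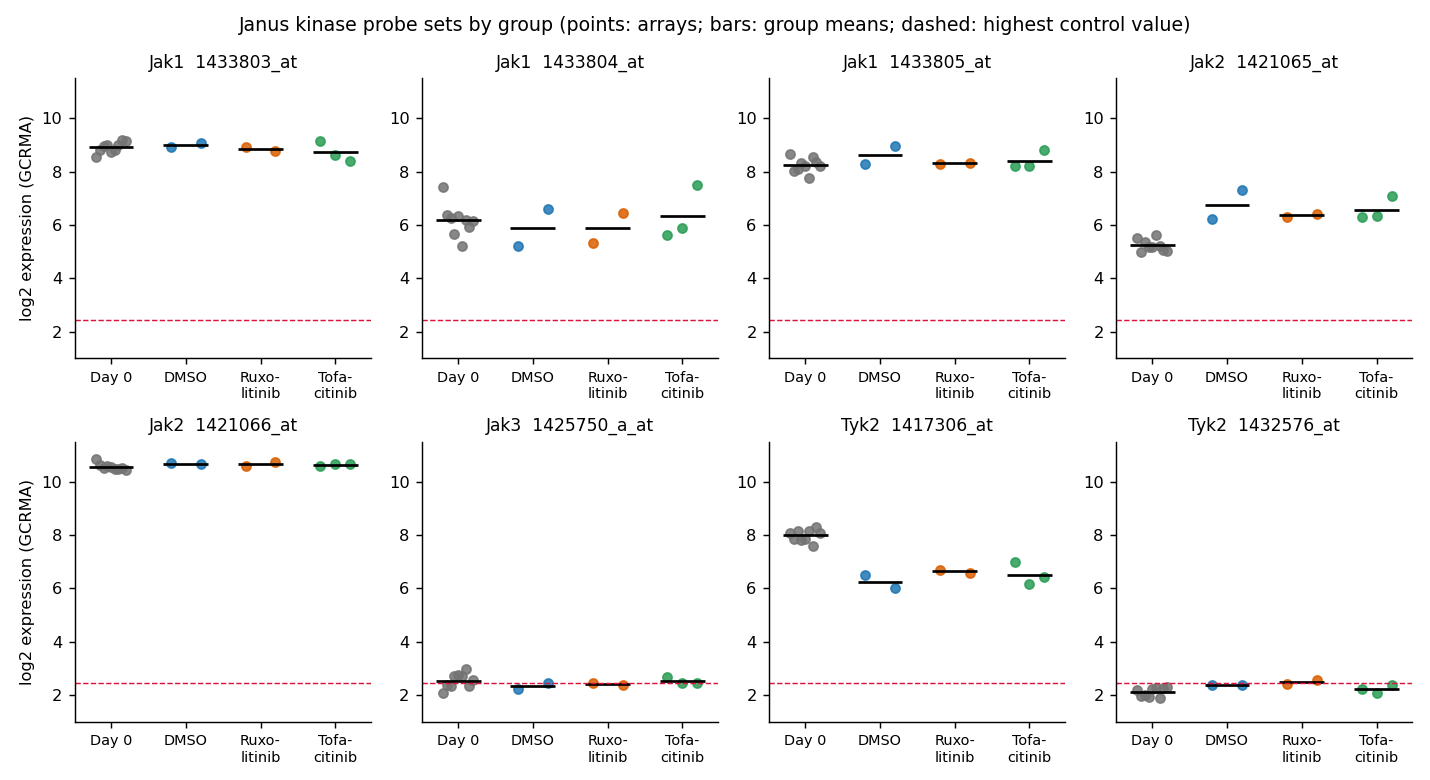
Log2 expression of the 8 Janus kinase probe sets (vertical axes, 1 panel each) in the Day 0, DMSO, ruxolitinib and tofacitinib groups (horizontal axes). Points are arrays (9, 2, 2 and 3 per group), bars are group means and the dashed line marks 2.43, the highest value of control probe sets without a target. Tyk2 1417306_at lies between 7.58 and 8.32 at day 0 and between 6.03 and 6.98 at day 5, and the Jak3 probe set lies near the dashed line throughout.

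Jak1, the member shared by most of the cytokine receptors named above, has 3 probe sets, all annotated to the same transcript record (BQ032637). For 1433803_at the Day 0 arrays ran from 8.54 to 9.20 with a median of 8.97. The DMSO arrays read 8.92 (mouse 2) and 9.07 (mouse 3), the ruxolitinib arrays 8.92 (mouse 4) and 8.78 (mouse 6), and the tofacitinib arrays 9.16 (mouse 7), 8.62 (mouse 8) and 8.40 (mouse 9). The DMSO and ruxolitinib arrays thus lie within the Day 0 range, and only mouse 9 lies below it. The fitted difference from Day 0 was 0.08 ± 0.19 (SE) with DMSO, -0.07 ± 0.19 with ruxolitinib and -0.21 ± 0.16 with tofacitinib (limma adjusted p = 0.76, 0.797 and 0.297). Without the tofacitinib array of mouse 7, whose labels conflict, the tofacitinib difference was -0.46 (adjusted p = 0.0214) and passed, so whether it passes depends on that array. Over all day-5 groups the difference was -0.07, with a 95% interval of -0.32 to 0.19. The interval leaves out changes beyond its ends.

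The other 2 Jak1 probe sets varied more from array to array. For 1433804_at the Day 0 arrays ran from 5.20 to 7.43 with a median of 6.19. Its DMSO arrays read 5.21 and 6.59, its ruxolitinib arrays 5.32 and 6.44, and its tofacitinib arrays 5.64, 5.88 and 7.49. Replicates of 1 group were thus up to 2.23 log2 units apart at day 0, and all groups overlap. For 1433805_at the Day 0 arrays ran from 7.76 to 8.67 with a median of 8.23. Its DMSO arrays read 8.28 and 8.95, its ruxolitinib arrays 8.28 and 8.34, and its tofacitinib arrays 8.22, 8.20 and 8.81. In both probe sets the highest Day 0 array was that of mouse 1, the highest DMSO array that of mouse 3 and the highest tofacitinib array that of mouse 9. In 1433803_at mouse 1 was instead the lowest of the Day 0 arrays and mouse 9 the lowest of the tofacitinib arrays.

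Agreement between probe sets was measured within mice, as the day-5 minus day-0 change of 1 probe set minus that of the other over the 7 mice with both biopsies. For Jak1 the 3 pairs differed by -0.27 ± 1.15 (SD, 1433803_at minus 1433804_at), -0.41 ± 0.58 (1433803_at minus 1433805_at) and -0.14 ± 0.74 (1433804_at minus 1433805_at). None passed an exact two-sided sign-flip permutation test (n = 7 mice, p = 0.547, 0.109 and 0.656, and 0.656, 0.219 and 0.656 adjusted over the 4 pairs tested). With SDs of this size over 7 mice, smaller disagreements could not be seen.

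Jak2, the kinase of the growth hormone, leptin and interferon gamma receptors, has 2 probe sets annotated to the same RefSeq transcript (NM_008413), and they did not move alike. For 1421065_at the Day 0 arrays ran from 5.00 to 5.62 with a median of 5.19. Its DMSO arrays read 6.21 (mouse 2) and 7.32 (mouse 3), its ruxolitinib arrays 6.32 (mouse 4) and 6.41 (mouse 6), and its tofacitinib arrays 6.29 (mouse 7), 6.34 (mouse 8) and 7.08 (mouse 9). Every day-5 array lies above every Day 0 array, and mice 3 and 9, the high day-5 arrays for Jak1 1433804_at and 1433805_at, are again the highest. The fitted rise was 1.53 ± 0.25 with DMSO (limma adjusted p = 0.000264), 1.11 ± 0.25 with ruxolitinib (adjusted p = 0.00366) and 1.34 ± 0.21 with tofacitinib (adjusted p = 0.0002). With the mouse as a fixed block the ruxolitinib rise was 0.95 and no longer passed (adjusted p = 0.0866). Without the vehicle array of mouse 3 the DMSO rise was 0.96, and it still passed (adjusted p = 0.0205 at most when any single array was left out). Within the 7 mice with both biopsies 1421065_at was higher at day 5 in 7 of 7, by 1.35 ± 0.48 (SD). How many of all probe sets separate the days fully, or move 1 way in 7 of 7 mice, was not counted.

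The second Jak2 probe set, 1421066_at, was nearly level. Its Day 0 arrays ran from 10.45 to 10.85 with a median of 10.53, and all 7 day-5 arrays lay between 10.59 and 10.75. Only mouse 1, at 10.85, lay above them at day 0, and the next highest Day 0 array read 10.65. The difference over all day-5 groups was 0.10 ± 0.08 (95% interval -0.06 to 0.26, limma adjusted p = 0.258), or 1.07-fold. Its change within mice was small and upward in 7 of 7 mice, from 0.02 to 0.28. Within mice, 1421065_at rose by 1.22 ± 0.47 (SD, n = 7) more than 1421066_at, with a larger rise in 7 of 7 mice. The exact sign-flip permutation p was 0.0156, the smallest that 7 mice can give, and 0.0625 after Benjamini-Hochberg adjustment over the 4 pairs, which did not pass 0.05. A pair that alone reaches the smallest p cannot pass this adjustment, so the adjusted result cannot decide whether the 2 probe sets changed unequally. With day labels permuted over all 16 arrays, ignoring the pairing, the adjusted exact p was 0.00035. The rise of Jak2 is therefore a result of 1 probe set, and the size of a change in its whole transcript pool is not settled by these 2.

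The stretch upstream of all annotated Jak2 starts is shown because Jak2 is the member with the rising probe set. It was taken from RefSeq on build GRCm38.p6, chr19:29251553-29251802, plus strand, 250 bases, and is printed in lower case.
Jak2: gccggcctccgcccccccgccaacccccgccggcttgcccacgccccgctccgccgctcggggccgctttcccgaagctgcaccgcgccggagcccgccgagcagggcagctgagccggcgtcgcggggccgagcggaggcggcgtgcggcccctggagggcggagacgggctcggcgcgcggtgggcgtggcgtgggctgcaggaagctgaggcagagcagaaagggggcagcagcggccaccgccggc
It is 80.8% G and C and holds neither the interferon gamma activated site TTCNNNGAA, to which STAT dimers bind, nor the interferon stimulated response element (GAAA, any 2 bases, GAAA), on either strand, nor a CCAAT box. Among 32851 RefSeq promoter windows of the same 250 bases, 7.02% hold the first motif, 2.98% the second and 33.8% a CCAAT box.

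**Figure D2:**
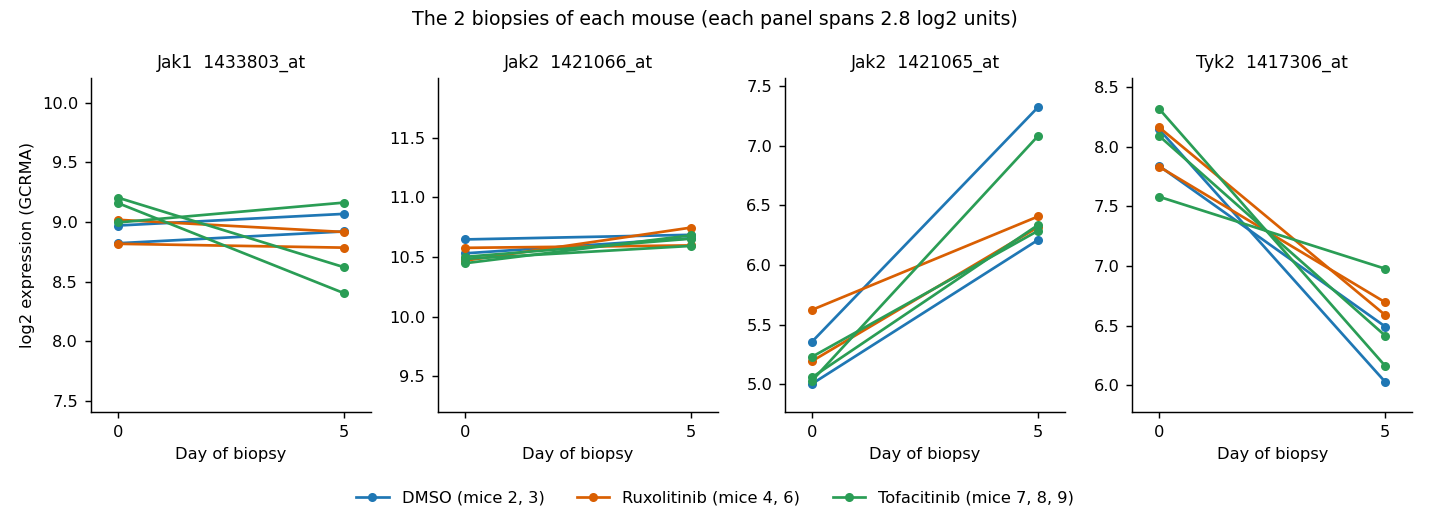
Log2 expression (vertical axes, each spanning 2.8 units) of 4 Janus kinase probe sets in the day-0 and day-5 biopsy (horizontal axes) of the 7 mice biopsied at both days, with lines joining the biopsies of 1 mouse and colours marking the treatment. Tyk2 1417306_at goes down in 7 of 7 mice, Jak2 1421065_at goes up in 7 of 7, and Jak2 1421066_at moves by at most 0.28.

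Jak3, the partner of the common gamma chain in lymphoid cells, could not be followed. Its only probe set with 1 symbol, 1425750_a_at, ran from 2.08 to 2.99 at day 0 with a median of 2.57. It read 2.24 and 2.46 with DMSO, 2.44 and 2.37 with ruxolitinib, and 2.67, 2.46 and 2.47 with tofacitinib. The 27 control probe sets without a target reached 2.43 at most, and 4 of 9 Day 0 arrays and 2 of 7 day-5 arrays lay at or under that value. The groups overlap, and no fold or test is given for Jak3. Another 2 probe sets are annotated to both Jak3 and Insl3, a neighbouring gene that overlaps Jak3 and shares its annotated end, and they were left out of the family because they cannot be assigned to either. One of them, 1427092_at, read 4.16 and 4.22 with DMSO, above every inhibitor array (3.08 to 3.72). It exceeded the filter value of 4 only on those 2 DMSO arrays and was singled out after its values were seen, so this is a description only. The other, 1423021_s_at, overlapped, with DMSO arrays from 3.57 to 3.63, ruxolitinib arrays from 3.46 to 3.68 and tofacitinib arrays from 3.52 to 3.73.

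Tyk2, the kinase of type I interferon and IL-12 family receptors, was the only tested member probe set to fall. For 1417306_at (transcript NM_018793) the Day 0 arrays ran from 7.58 (mouse 7) to 8.32 (mouse 8) with a median of 8.08. The DMSO arrays read 6.49 (mouse 2) and 6.03 (mouse 3), the ruxolitinib arrays 6.70 (mouse 4) and 6.59 (mouse 6), and the tofacitinib arrays 6.98 (mouse 7), 6.16 (mouse 8) and 6.42 (mouse 9). Every day-5 array lies below every Day 0 array, and the highest day-5 value belongs to mouse 7, which was also the lowest at day 0. Its fitted change was -1.73 ± 0.21 with DMSO (limma adjusted p = 3.04e-05), -1.35 ± 0.21 with ruxolitinib (adjusted p = 0.000309) and -1.47 ± 0.18 with tofacitinib (adjusted p = 2.49e-05). Within mice it was lower at day 5 in 7 of 7, with a mean change of -1.52 ± 0.55 (SD), from -0.60 in mouse 7 to -2.16 in mouse 8. With the mouse as a fixed block the ruxolitinib change was -1.36 and no longer passed (adjusted p = 0.0637). As for Jak2, the share of all probe sets with such a separation of days or of mice was not counted.

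The other Tyk2 probe set, 1432576_at, is annotated to a cDNA record (AK006986). It did not exceed the highest control on 9 of 9 Day 0 arrays, between 1.89 and 2.30, and on 6 of 7 day-5 arrays, where it ran from 2.09 to 2.57. At this level it gives no measure of Tyk2, so the fall rests on 1 probe set. Over all day-5 groups the change of 1417306_at was -1.52 (95% interval -1.81 to -1.23, adjusted p = 4.64e-07), lower than the change of all but 4.53% of the 24548 probe sets tested.

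The stretch upstream of all annotated Tyk2 starts is shown for the member that fell, again from RefSeq on GRCm38.p6, chr9:21131394-21131525, minus strand, 132 bases, with the CCAAT box in capitals.
Tyk2: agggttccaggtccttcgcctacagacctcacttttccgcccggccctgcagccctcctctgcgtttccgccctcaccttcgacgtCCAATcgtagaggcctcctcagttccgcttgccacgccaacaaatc
This stretch holds 1 CCAAT box and, like that of Jak2, neither TTCNNNGAA nor the interferon stimulated response element. Over the full 250 bases before the table's Tyk2 start there were 2 matches to CCAAT, against 1 for Jak1 and 0 for Jak2 and Jak3, counting both strands. None of the 4 windows held TTCNNNGAA or the interferon stimulated response element. A match or its absence in this window is a description of letters only.

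These counts have to be read against a background in which much of the array moved. With DMSO against Day 0, 2 of the 6 tested Janus kinase probe sets passed (1 higher and 1 lower), while 47.2% of all 24548 tested probe sets were called (20.9% higher and 26.3% lower). The same 2 of 6 passed with ruxolitinib, where 33.3% were called (13.2% higher and 20% lower), and with tofacitinib, where 48.5% were called (21.8% higher and 26.7% lower). For the mean of the day-5 groups it was again 2 of 6, against 62% (28.7% higher and 33.3% lower). The share of the family that was called was near or under that of all probe sets. The 3 comparisons share the 9 Day 0 arrays, so their agreement for Tyk2 and Jak2 is not independent.

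The drugs were then compared with the vehicle, both at day 5. Of the 6 tested probe sets 0 passed with ruxolitinib, where 0.961% of all probe sets were called, 0 with tofacitinib, where 0.0611% were called, and 0 for the mean of both inhibitors, where 0.46% were called. In limma 0 of the 6 reached even an unadjusted p under 0.05 in any of these. For Tyk2 the ruxolitinib arrays (6.70 and 6.59) both lay above the DMSO arrays (6.49 and 6.03), a difference of 0.38 ± 0.28 with an interval of -0.21 to 0.97 (adjusted p = 0.538). The tofacitinib arrays overlapped those of DMSO, with a difference of 0.26 ± 0.25 and an interval of -0.28 to 0.80 (adjusted p = 0.884). For Jak2 1421065_at the difference from DMSO was -0.42 ± 0.32 with ruxolitinib (interval -1.11 to 0.27, adjusted p = 0.56) and -0.19 ± 0.30 with tofacitinib (interval -0.82 to 0.44, adjusted p = 0.927). Jak2 1421066_at had the narrowest intervals, -0.32 to 0.34 with ruxolitinib and -0.32 to 0.28 with tofacitinib. Jak1 1433803_at stood at -0.15 (interval -0.67 to 0.38) and -0.28 (interval -0.76 to 0.19). Jak1 1433804_at had the widest, -1.37 to 1.48 and -0.84 to 1.75.

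Ruxolitinib and tofacitinib were compared directly as the study's 2 inhibitors, which share a pyrrolopyrimidine ring and differ in what it carries, a pyrazole with a cyclopentyl nitrile side chain in ruxolitinib and a methylpiperidine amine in tofacitinib. In tofacitinib against ruxolitinib 0 of 6 Janus kinase probe sets passed and 0 reached an unadjusted p under 0.05 in limma, while 0.297% of all probe sets were called. Tyk2 differed by -0.12 ± 0.25 (interval -0.66 to 0.42), Jak2 1421065_at by 0.23 ± 0.30 (interval -0.40 to 0.86), Jak2 1421066_at by -0.03 ± 0.14 (interval -0.33 to 0.28) and Jak1 1433803_at by -0.14 ± 0.22 (interval -0.61 to 0.34). These intervals do not show that the drugs act alike, and whether their doses match is not stated in the labels.

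**Figure D3:**
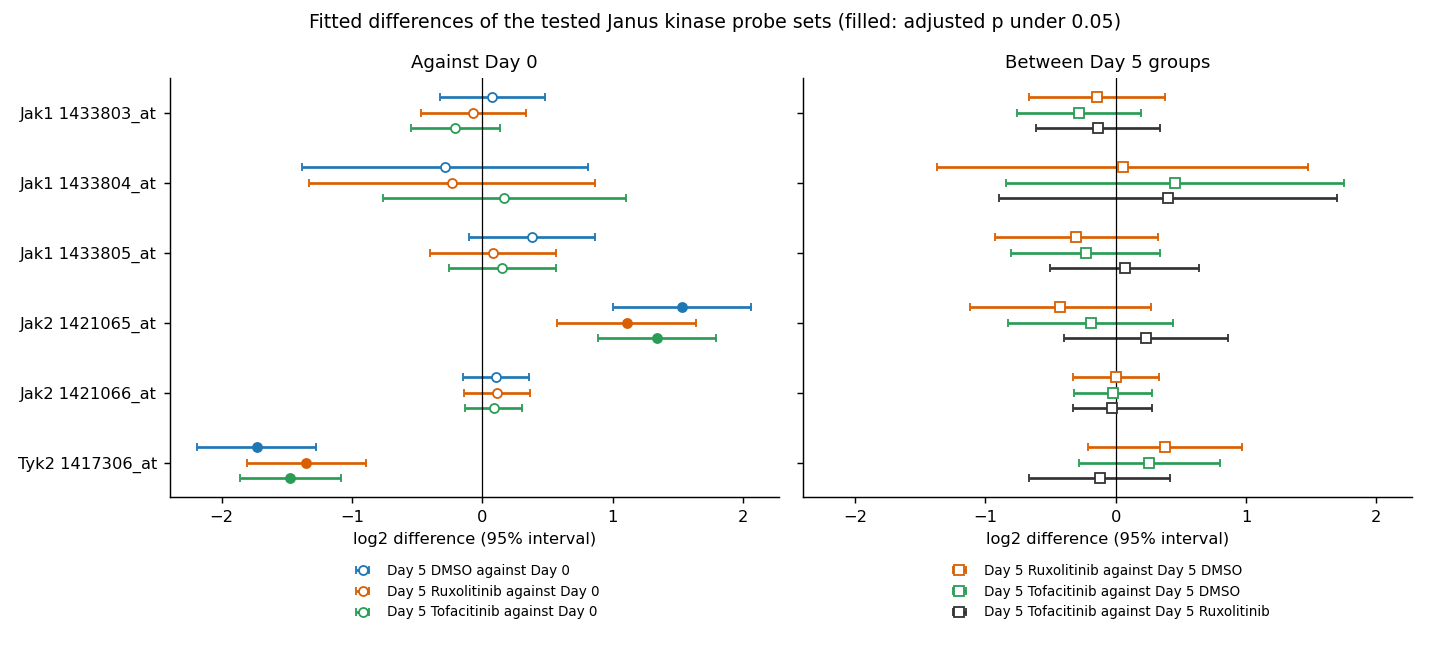
Fitted log2 differences (horizontal axes) of the 6 tested Janus kinase probe sets (rows), with 95% intervals, for each day-5 group against Day 0 (left) and between day-5 groups (right). Filled symbols have an adjusted p under 0.05. These are Jak2 1421065_at (1.11 to 1.53) and Tyk2 1417306_at (-1.73 to -1.35) against Day 0, and no symbol in the right panel is filled.

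In order of level, Tyk2 1417306_at was highest at day 0 (mean 7.99 ± 0.23, SD, n = 9), followed by ruxolitinib (6.64 ± 0.08, n = 2), tofacitinib (6.52 ± 0.42, n = 3) and DMSO (6.26 ± 0.33, n = 2). Jak2 1421065_at ran the other way, with DMSO highest (6.77 ± 0.79), then tofacitinib (6.57 ± 0.45), ruxolitinib (6.36 ± 0.06) and Day 0 (5.24 ± 0.22). In both orders the 3 day-5 groups passed no test against each other and only the step to Day 0 did. For Jak1 1433803_at the order was DMSO (8.99 ± 0.10), Day 0 (8.92 ± 0.21), ruxolitinib (8.85 ± 0.09) and tofacitinib (8.73 ± 0.39), and no neighbours differed beyond their spread. The group means of Jak2 1421066_at lay between 10.56 (Day 0) and 10.67 (ruxolitinib).

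The profiles most like each member were found by the root mean square difference over the 16 arrays, after each probe set was centred on its own Day 0 mean. For Tyk2 they were Cbx2, a Polycomb chromobox protein (0.18 log2 units, day-5 change -1.50), Tmc6, a transmembrane channel-like protein (0.19, change -1.32), and Ppp1r13l, an inhibitor of p53 (0.20, change -1.58). In all, 33 genes lay within 0.25 of the Tyk2 profile. For Jak1 1433803_at the closest were Tspan31, Tollip and Atp6v1f, and 918 genes lay within 0.25. For Jak2 1421066_at they were Atxn2, Lamtor1 and Ccny, and 2223 genes did. Flat profiles such as those of Jak1 and this Jak2 probe set resemble very many others.

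The pathway around the kinases was taken from gene lists, with the kept probe set of highest mean for each gene, and compared as the mean of the day-5 groups against Day 0. Of 7 STAT genes, the transcription factors that JAKs phosphorylate, 5 were tested. Of these 4 fell and 1 rose, with a median of -0.82 against -0.03 over all probe sets, of which 33.3% were called lower and 28.7% higher in this comparison. Stat5a fell by 0.99 ± 0.11 (limma adjusted p = 3.62e-06) and Stat6, the factor of IL-4 signalling, by 0.85 ± 0.11 (adjusted p = 1.28e-05). Stat2, the partner of Tyk2-linked interferon receptors, is among the 4 called lower but read low throughout. Its mean was 3.95 at day 0 and between 2.95 and 3.27 in the day-5 groups. It passed the filter at 4 only through Day 0 arrays, so its fall is not taken as a test. The list median of -0.82 is its fitted value. Stat3 fell by 0.35 ± 0.10 over all day-5 groups and its other kept probe sets by 0.72 and 0.66. By group, it fell with ruxolitinib (-0.55 ± 0.16) and tofacitinib (-0.38 ± 0.13) and stood at -0.12 ± 0.16 with DMSO (adjusted p = 0.551). Stat5b, the paralogue of Stat5a, rose by 0.47 ± 0.12 over all groups (adjusted p = 0.00351). It rose with DMSO (0.80 ± 0.19) and tofacitinib (0.49 ± 0.16) and stood at 0.12 ± 0.19 with ruxolitinib (adjusted p = 0.634). Neither gene passed between the day-5 groups.

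The list of 42 cytokine receptor chains includes some that do not bind a JAK themselves. Of the 42, 27 were tested, of which 15 fell, 4 rose and 8 did not pass (median -0.62), beside the 62% of all probe sets called. The steepest by p were the interferon lambda receptor Ifnlr1 (-3.08 ± 0.20, adjusted p = 2.71e-08), the IL-20 receptor chains Il20ra (-3.93 ± 0.33) and Il20rb (-1.70 ± 0.16), and the IL-22 receptor Il22ra1 (-1.55 ± 0.16), while Csf2ra (-0.07 ± 0.16) and Il13ra2 (0.06 ± 0.27) had the largest p. Csf2ra read low throughout, with group means between 3.38 and 3.63, where changes are compressed. By group, Il20rb stood at -2.57 ± 0.26 with DMSO, -1.18 ± 0.26 with ruxolitinib and -1.35 ± 0.22 with tofacitinib, and Il22ra1 at -2.38 ± 0.25, -1.26 ± 0.25 and -0.996 ± 0.22. Il20rb and Il22ra1 were singled out after these values were seen. The mean of both inhibitors stood 1.30 ± 0.28 above DMSO for Il20rb and 1.25 ± 0.28 for Il22ra1. Neither difference passed in limma (adjusted p = 0.0519 and 0.0541), and the median of the 27 tested chains was 0.10. Between day-5 groups 0 of these 27 passed in limma.

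Of 19 inhibitors and phosphatases that act on JAKs, 17 were tested, of which 6 fell, 5 rose and 6 did not pass (median -0.10), again beside 62% of all probe sets. Usp18, which blocks the type I interferon receptor, is among the 6 called lower. Its mean went from 6.80 at day 0 to 3.65 with DMSO, 2.60 with ruxolitinib and 2.62 with tofacitinib. These day-5 means lie under the filter value of 4, and the drug means lie close to the highest control value of 2.43. Usp18 was kept by the filter through its Day 0 arrays, so no size or test is given. The phosphatase Ptpn6 fell by 2.06 ± 0.15 (1.08 in its other kept probe set), Cish by 2.05 ± 0.29 and Socs3 by 1.36 ± 0.19 (1.41 and 1.63 in its other kept probe sets). The phosphatase Ptpn1 stood at -0.15 ± 0.17. The ubiquitin ligase Cbl stood at -0.10 ± 0.14, but its other kept probe set fell by 1.09. Socs3, itself a known STAT3 target, stood at -0.43 ± 0.29 with DMSO (adjusted p = 0.246) and fell with ruxolitinib (-1.85 ± 0.29) and tofacitinib (-1.80 ± 0.25). Singled out after these values were seen, its difference of the mean of both inhibitors from DMSO was -1.40 ± 0.32, which did not pass (adjusted p = 0.0595). In limma 0 of the 17 passed between the day-5 groups.

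Other cytoplasmic tyrosine kinases gave a comparison with enzymes of the same kind. Of 28 listed, 16 were tested, of which 9 fell, 3 rose and 4 did not pass (median -0.45), beside the same 62%. Tnk1 fell by 1.66 ± 0.16 and Csk, the kinase that restrains the Src family, by 1.19 ± 0.13. The other kept Tnk1 probe set averaged 3.60 over the 16 arrays, under the filter value of 4. It may have been kept only through Day 0 arrays, so its fall is not used. Srms, also called lower, went from a mean of 4.15 at day 0 to between 2.32 and 2.65 in the day-5 groups. The day-5 means are at the level of the controls. Srms was kept by the filter at 4 through its Day 0 arrays, so no size or test is given. Abl2 rose by 1.05 ± 0.13 in 1 probe set and stood at 0.07 in its other, a split like that of Jak2. Abl1 (-0.02 ± 0.08) and Tec (-0.02 ± 0.14) did not pass. The fall of Tyk2 therefore lies within the range of falls among other tyrosine kinases of the same skin, and no test of a difference between the lists was made.

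**Figure D4:**
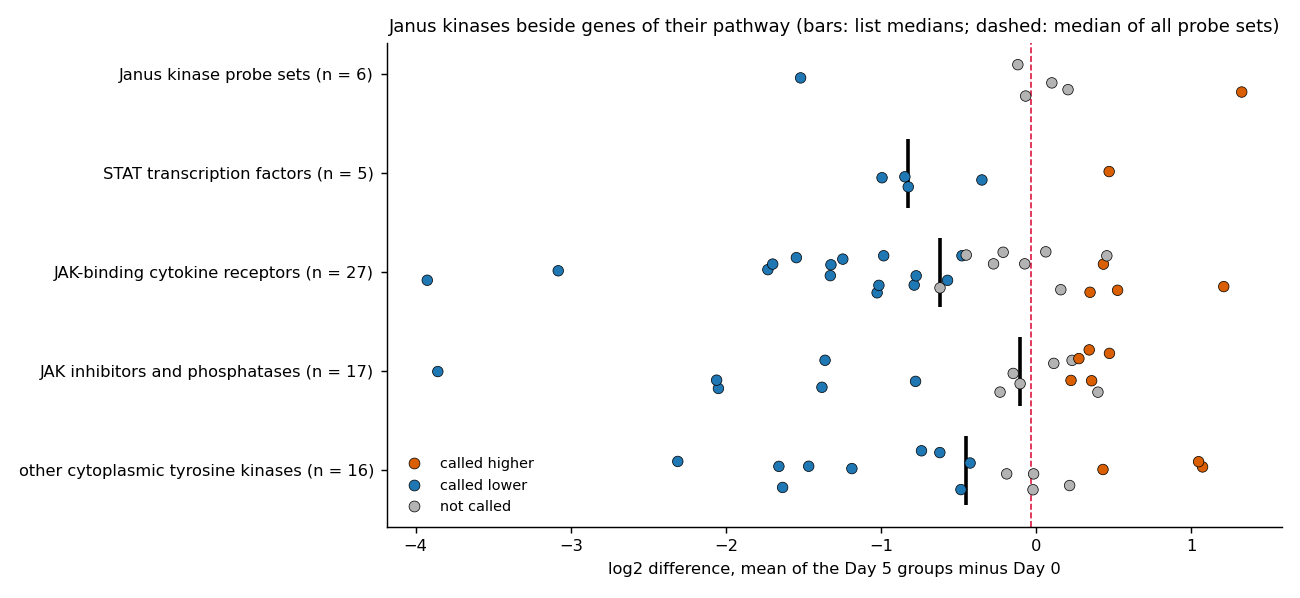
Log2 difference of the mean of the day-5 groups from Day 0 (horizontal axis) for the 6 tested Janus kinase probe sets and for genes of 4 related lists (rows; each point 1 probe set). Colours show genes called higher, called lower or not called, bars mark list medians and the dashed line the median of all probe sets (-0.03). Tyk2 (-1.52) and Jak2 1421065_at (1.33) lie at the ends of the Janus kinase row, and the medians of the 4 lists lie between -0.82 and -0.10.

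Markers of several cell types separated the days as Tyk2 and Jak2 did. Their counts for the mean of the day-5 groups stand beside 62% of all tested probe sets called (28.7% higher and 33.3% lower). The mean of the 8 basal keratinocyte markers lay between 11.70 and 12.17 at day 0 and between 10.67 and 11.10 at day 5, and 8 of 8 fell. The mean of the 7 tested T and NK cell markers (of 14 listed) fell from between 5.87 and 7.30 to between 3.72 and 4.64, and 7 of 7 fell. Cd3d did not exceed the highest control value on the DMSO arrays, nor Nkg7 on the ruxolitinib arrays. Some of the 7 may have passed the filter at 4 only through Day 0, where they were high, so their count is not a test. Fibroblast markers went from between 6.77 and 8.93 to between 9.62 and 10.36 (5 of 8 rose), and endothelial markers from between 2.44 and 4.18 to between 4.84 and 5.75 (8 of 8 rose). The lowest endothelial mean at day 0 is at the highest control value of 2.43, so this rise starts near background. Some endothelial markers may have passed the filter at 4 only through day 5. Skeletal muscle markers rose in 8 of 10 cases and adipocyte markers in 4 of 7, while macrophage and Langerhans cell markers overlapped between the days (3 rose and 2 fell of 9). Of 6 general leukocyte markers 4 fell, and of 7 suprabasal keratinocyte markers 4 fell and 1 rose. By group, 4 of 7 suprabasal markers were called lower and 0 higher with DMSO. With ruxolitinib 0 were called lower and 1 higher, and with tofacitinib 2 lower and 1 higher. Of all probe sets 26.3%, 20% and 26.7% were called lower in these comparisons, and 20.9%, 13.2% and 21.8% higher. These calls against Day 0 do not test the day-5 groups against each other. The suprabasal mean of the DMSO arrays (11.15 to 11.39) lay below that of every inhibitor array (11.90 to 12.28), though 0 of the 7 markers passed between the day-5 groups in limma. The part of these shifts in the Tyk2 and Jak2 differences was not tested. In whole skin, fewer cells of a type and less RNA per cell cannot be told apart. The 3 prime minus 5 prime signal of the actin control, a measure of RNA integrity, overlapped between the days (1.65 to 2.09 at day 0 and 1.64 to 1.95 at day 5). That of Gapdh also overlapped (0.825 to 1.47 and 0.779 to 0.985). Mouse 1 at day 0 was the highest array in both, at 2.09 and 1.47, where the next highest Gapdh value was 1.06. The same array was the lowest at day 0 for Jak1 1433803_at and the highest for 1433804_at, 1433805_at and Jak2 1421066_at, and the part of RNA integrity in these values was not tested.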

How the data were processed

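RNA from 16 whole-skin biopsies of 9 mice was amplified, labelled with biotin and hybridised to Affymetrix mouse arrays, per the labels' protocols. The authors deposited log2 values, 1 per probe set, from GCRMA, per the submitters' processing notes. No version is stated in the sources used here, nor whether the arrays were normalized as 1 set. GCRMA pulls low signals toward a floor, so changes near background are compressed. Array medians lay between 3.75 and 3.94.

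Groups came from the labels. The 64 control probe sets were left out, and a probe set was kept when it exceeded 4 in at least 2 arrays (24548 kept, 20984 of them with 1 symbol). Each kept probe set was fitted with limma 3.58.1 in R 4.3.3: a mean per group over all 16 arrays, the mouse as a random block (consensus correlation 0.0805) and variances moderated by eBayes (12 residual degrees of freedom, 3.13 from the prior). Benjamini-Hochberg adjustment ran over all kept probe sets within each comparison, with calls at an adjusted p under 0.05. Pairing comes from the labels, which place both biopsies on 1 mouse; the deviations of a mouse's 2 arrays correlated between -0.24 and 0.19, above 0.1 in 2 of 7 mice. The mice are separate animals, and the number of arrays limits the precision. On simulated data, the share of probe sets changed by 1 log2 unit that was recovered against Day 0 was 53% for DMSO, 45% for ruxolitinib, 64% for tofacitinib and 81% for the mean of the day-5 groups, and of those changed by 2 it was 96%, 97%, 97% and 100%. The simulation changed a far smaller part of the probe sets than was called in the data. The adjustment depends on that part, so these shares do not give the power of the reported tests. The members and gene lists were chosen with earlier results of these data known. Named genes followed a rule: all member probe sets, the 3 closest profiles per member, and from each related list the 4 genes with the smallest and the 2 with the largest p, with exceptions stated. No probe positions within transcripts were used here.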

Additional observations from a re-analysis of the deposited data

Results flagged for a closer look

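The Day 0 value of mouse 1 for Jak2 1421066_at, 10.85, stood apart from the other Day 0 arrays, of which the next highest read 10.65. The gap took up 0.499 of the group's range. It was the only one of the 8 Day 0 groups of member probe sets, which are all the groups large enough to be checked this way, to stand out, and chance alone gives about 5% of such groups. Without this array the day-5 difference of the probe set was 0.13 and still did not pass. This array also had the highest 3 prime minus 5 prime signal of actin (2.09) and Gapdh (1.47), and their part in the value was not tested.

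Probe set 1427092_at, annotated to both Jak3 and Insl3 and so outside the comparisons, had a mean of 3.51 over the 7 day-5 arrays. They ran from 3.08 to 4.22, all above the highest control value of 2.43 and above the Day 0 arrays, which ran from 2.25 to 2.89. The 2 DMSO arrays read 4.16 and 4.22, the ruxolitinib arrays 3.09 and 3.13, and the tofacitinib arrays ran from 3.08 to 3.72. It was among the probe sets fitted with limma and was singled out after its values were seen. It exceeded the filter value of 4 only on the 2 DMSO arrays, so it entered the fit only through the group where it was high. Its fitted differences are therefore a description, and no p-value is given for them. From Day 0 they were 1.56 ± 0.19 with DMSO, 0.45 ± 0.19 with ruxolitinib and 0.68 ± 0.16 with tofacitinib. From DMSO they were -1.11 ± 0.24 with ruxolitinib, -0.88 ± 0.22 with tofacitinib and -0.995 ± 0.20 for the mean of both drugs. With the mouse as a fixed block, or with only the groups compared, no probe set was called between day-5 groups, this one included. The other probe set with both symbols, 1423021_s_at, overlapped between the days (3.18 to 3.88 and 3.46 to 3.73).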

How the results depend on the processing

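Of 1266 values of member probe sets under the alternatives, 1263 kept their side of the threshold, 2 lost a call, 1 gained one and 0 called values changed sign; 52 values that passed in neither setting did. The lost calls were the ruxolitinib ones under the fixed replicate block given above, and the gained one was Jak1 1433803_at with tofacitinib without mouse 7. Tyk2 over all day-5 groups stayed between -1.61 and -1.35 and Jak2 1421065_at between 1.14 and 1.51.

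Counts of probe sets called moved more. With the mouse as a fixed replicate block 6467 were called for DMSO and 2745 for ruxolitinib against Day 0, and 0 between any day-5 groups. With only the groups compared it was also 0 between day-5 groups in limma (at unadjusted p under 0.05, 3669, 863, 2042 and 3147 with the block, and 3941, 1426, 2752 and 1043 with only the groups compared, for ruxolitinib, tofacitinib and their mean against DMSO and tofacitinib against ruxolitinib). With a filter at 6 the counts were 151, 3 and 20 for ruxolitinib and tofacitinib against DMSO and tofacitinib against ruxolitinib. With 1 probe set per gene, which tests fewer features, they were 6177, 4104, 6055 and 7799 against Day 0 (DMSO, ruxolitinib, tofacitinib, mean), 63 for ruxolitinib against DMSO and 3 between the drugs. A variance trend gave 29 and 188 for tofacitinib and the mean of both drugs against DMSO. Chosen after seeing the data, only mice with both biopsies gave 5 for tofacitinib against DMSO, and leaving out the Day 0 arrays of mice 1, 3, 8 and 9, whose adipocyte markers were low, gave 361, 34 and 270 for ruxolitinib, tofacitinib and their mean against DMSO. The reported counts were 11590, 8168, 11901 and 15222 against Day 0, and 236, 15, 113 and 73. Leaving out each array in turn, they ran from 6330 to 12236, 4235 to 8779, 7825 to 12701 and 13616 to 15924, and from 44 to 501, 2 to 100, 11 to 534 and 39 to 126. The cause of these shifts was not tested.

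The unequal change of the Jak2 probe sets, 1.22 as reported, was 1.11 to 1.33 with each mouse left out, and 1.23 (adjusted exact permutation p = 0.00035) without the replicate pairing. The alternatives changed no other call. With 2 or 3 arrays in each day-5 group, precision was lowest for Jak1 1433804_at, whose intervals between these groups ran from -1.37 to 1.75.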
